A study of Mus musculus with 8 samples.

Results

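The comparison set primary limb bud cells treated with AdeLacZ, an adenovirus that carries the bacterial reporter gene LacZ and serves as the control virus of the study, against limb bud cells left without virus. Its members were taken from the sample titles: 3 arrays titled AdeLacZ treated and 2 titled Untreated, which make 5 of the 8 arrays of the series. The other 3 arrays were treated with AdeCre, a virus that carries Cre recombinase. Every array held RNA of cells from fore- and hindlimb buds of 11.5-day mouse embryos. The labels give the strain of every array as 129XB6-Sox4fl/fl11fl/fl, a name that stands for loxP-flanked alleles of 2 transcription factor genes, and neither group compared here received Cre. Under genotype they give the AdeLacZ cells as treated controls and the untreated cells as wild type, and they do not say whether wild type means alleles that Cre has not cut or a different genotype. Cells were cultured for 6 h before treatment and held with the virus for 24 h, whereas the labels give no time of collection for untreated cells. Virus, LacZ protein, time in culture and any difference in genotype therefore cannot be told apart in this comparison. The labels number the replicates but do not say that they came from separate cultures or embryos, so each p-value reflects only how far these arrays differ among themselves, which may be technical.

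Adenoviral vectors enter cells through surface receptors and integrins and release DNA that cells can sense in endosomes and in the cytosol. Sensing leads to secretion of type I interferons, which act on the same and on neighbouring cells through the interferon receptor, JAK kinases and a complex of STAT proteins with IRF9. That complex binds a promoter element with repeated GAAA letters, and its target genes code for proteins that block viral RNA, protein synthesis and assembly. At this stage the limb bud is mostly mesenchyme, with muscle precursors, surface ectoderm, blood vessels, nerves, macrophages and primitive red cells beside it.

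To show the letters involved, stretches of promoter are given for the genes with the largest rises among interferon effectors and interferon-inducible GTPases whose window held the core of that element on either strand (GAAA, then 2 bases of any kind, then GAAA), and for 1 gene of the same lists whose window held none. The windows are those of RefSeq on build GRCm38.p6, from 250 bases before to 50 bases after each gene's start, and capitals mark the matches. Each stretch is written 5′ to 3′ on the strand of the gene and ends at the base just before the start. The stretches lie at chr4:156200819-156200938 on the minus strand (Isg15), chr19:34583363-34583528 on the plus strand (Ifit3), chr12:26456453-26456572 on the minus strand (Rsad2), chr3:142559924-142560043 on the plus strand (Gbp3), chr11:58199436-58199555 on the plus strand (Igtp), chr3:142620543-142620662 on the plus strand (Gbp2) and chr5:114896814-114896933 on the plus strand (Oasl2, no match).
Isg15: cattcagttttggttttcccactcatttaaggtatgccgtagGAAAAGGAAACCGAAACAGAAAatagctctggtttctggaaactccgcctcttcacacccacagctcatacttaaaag
Ifit3: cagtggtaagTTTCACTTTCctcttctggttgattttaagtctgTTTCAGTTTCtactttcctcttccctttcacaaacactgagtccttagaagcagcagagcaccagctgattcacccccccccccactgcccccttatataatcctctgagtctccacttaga
Rsad2: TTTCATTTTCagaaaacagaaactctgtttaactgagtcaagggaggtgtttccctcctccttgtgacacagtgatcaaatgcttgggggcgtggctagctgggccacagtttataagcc
Gbp3: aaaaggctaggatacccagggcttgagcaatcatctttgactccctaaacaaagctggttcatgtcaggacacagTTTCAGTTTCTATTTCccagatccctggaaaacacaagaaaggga
Igtp: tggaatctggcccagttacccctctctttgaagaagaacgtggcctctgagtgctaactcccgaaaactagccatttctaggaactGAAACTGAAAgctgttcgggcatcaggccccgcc
Gbp2: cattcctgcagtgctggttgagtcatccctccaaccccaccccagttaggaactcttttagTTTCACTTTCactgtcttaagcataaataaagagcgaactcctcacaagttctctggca
Oasl2: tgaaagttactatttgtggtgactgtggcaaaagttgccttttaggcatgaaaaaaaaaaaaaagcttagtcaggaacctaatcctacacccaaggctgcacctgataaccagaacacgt
Isg15 held 3 overlapping matches, Ifit3 held 2 separate ones and Gbp3 held 2 that overlap. Over all 27025 genes with a window, 3.99% held the letters, and over the 8696 tested genes with a window 3.61% did. Of the genes that rose in AdeLacZ cells 32 of 240 with a window held them (13.3%), and of those that fell 11 of 227 (4.85%). Among the interferon effectors and GTPases together the letters were in the window of 15 of 27 genes that rose (55.6%) and of 5 of 11 that were tested and did not pass (45.5%). Among genes that rose outside the interferon-related lists 12 of 198 windows held them (6.06%). A match is a description of letters, and its absence says only that these letters were not in that window.

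The arrays were Illumina mouse bead arrays with 25697 probes, and values below are the deposited background-subtracted intensities unless a log2 change is named. An array's detection floor, set from the spread of its values below 0, lay between 8.87 and 8.93 intensity units. In all, 15944 probes passed the floor on 2 or more of the 8 arrays and were tested, and the brightest probe stood for each of 10772 genes. All log2 changes are AdeLacZ minus untreated from limma, with Benjamini-Hochberg adjustment over all tested probes, and an adjusted p under 0.05 counts as a rise or a fall. The cells carried the limb label in their RNA: Prrx1, Twist1, Msx1, Hoxd13 and Lhx9, transcription factors of limb mesenchyme, were above the floor on all 5 arrays, as were Tbx4 and Tbx5, which mark hindlimb and forelimb. Tbx5 was near the floor, with 24.8, 26.7 and 12.5 units in AdeLacZ cells, against 10.1 and 21.0 in untreated cells. In bulk samples such as these, fewer cells of a type and less RNA per cell cannot be told apart. Correlations of log2 values over probes were 0.993 to 0.994 among AdeLacZ arrays and 0.991 between the untreated arrays.

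At the level of probes 435 were higher in AdeLacZ cells (2.73%) and 399 lower (2.5%). Across genes, 317 rose in AdeLacZ cells (2.94% of those tested) and 278 fell (2.58%), with a median size of 0.63 on the log2 scale. Of these, 64 rises and 31 falls were past 2-fold. Of the 64 large rises, 34 belonged to 7 lists on interferon effectors, GTPases, sensors, signalling factors, interferons, class I antigen presentation and chemokines, and 30 lay outside them. The untreated arrays did not stand at the same distance from the virus-treated ones. Untreated 2 correlated at 0.988 to 0.989 with the AdeLacZ arrays, and untreated 1 at 0.982 to 0.983.

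Each untreated array was therefore also used alone, with the lone array taken to vary like the other groups. The spread between the untreated arrays is absent from these fits. At some genes it was much wider than in AdeLacZ cells, as at Usp18 (SD 2.20 against 0.10 on the log2 scale). Passing against each untreated array alone therefore does not take that spread into account. Against untreated 1 alone 287 genes were higher (2.66%) and 189 lower (1.75%), and against untreated 2 alone 68 were higher (0.631%) and 51 lower (0.473%). In probes these counts were 393 (2.46%) and 276 (1.73%) against untreated 1, and 97 (0.608%) and 71 (0.445%) against untreated 2. Of the 317 rises, 65 passed against each untreated array alone, 135 passed against untreated 1 alone and not against untreated 2 alone, 2 the other way round, and 115 passed against neither alone. Of the 278 falls the same counts were 42, 109, 8 and 119. Untreated 2 was above untreated 1 in 268 of the 317 rises (84.5%), against 49.98% of all tested genes, and below it in 197 of the 278 falls (70.9%). Leaving out the 7 interferon-related lists gave 216 of 264 rises (81.8%) and 195 of 276 falls (70.7%), and the 264 still hold known interferon targets such as Samd9l and Shfl. No test was run on these shares, since the same arrays define the calls. A gene named below without a statement on the single untreated arrays need not have passed against either of them alone.

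**Figure D1:**
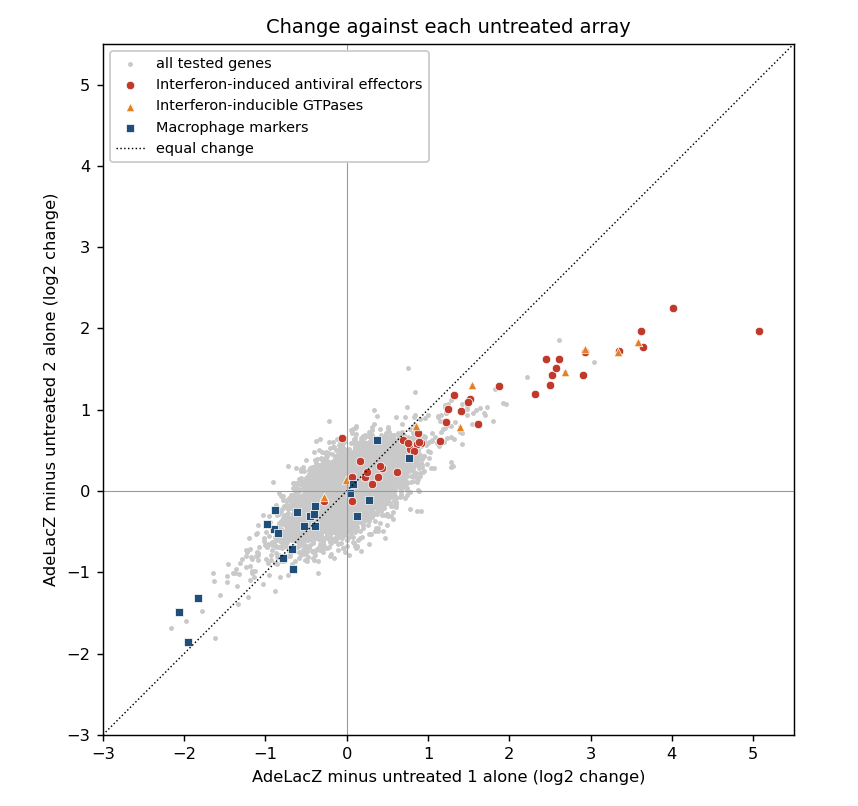
Log2 change in AdeLacZ cells against untreated 1 alone (horizontal axis) and against untreated 2 alone (vertical axis) for the 10772 tested genes (grey), with interferon effectors, interferon-inducible GTPases and macrophage markers in colour and a dotted line of equal change. Both axes share the AdeLacZ arrays, and most interferon effectors lie below the line on its right side, with Usp18 farthest at 5.07 and 1.97.

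Set against each other with 1 array on each side, and so with no test, the untreated arrays differed by a median of 0.16 on the log2 scale. Untreated 2 was past 2-fold above untreated 1 at 19 genes (0.176%), of which 16 belonged to the 7 interferon-related lists and 16 also rose in AdeLacZ cells. The largest of these log2 differences were at Usp18 (3.11), Rsad2 (1.87), Isg15 (1.77) and Gbp3 (1.75), followed by Ifit3 and Oasl2. Igtp and Oasl1 were among the 19 too, but were below the floor on untreated 1, so the size of their difference was not measured. Untreated 2 was past 2-fold below untreated 1 at 3 genes (0.0278%), none of which passed the test in AdeLacZ cells. These were the membrane protein gene Stom, the chaperone gene Hsp90aa1 and the odorant receptor gene Olfr732, whose signal was at the floor on untreated 1 and below it on untreated 2, so that its difference was not measured.

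Interferon effectors carried the largest rises. Of 60 genes listed, 56 had a probe and 42 were tested, of which 29 rose and none fell, with a median change of 0.96 against -0.0007 over all tested genes. Oas2, Oas1b and Trim30a count among the 29, but were below the floor on both untreated arrays. They could enter the test only through virus-treated arrays, so the filter left them little room to fall. With a floor on all arrays 21 effectors rose. Usp18, the protease that removes ISG15 from proteins and dampens the interferon receptor, had 1764, 2042 and 1919 intensity units on the AdeLacZ arrays, against 27.8 on untreated 1 and 466 on untreated 2. Its log2 change was 3.52 (SE 0.63, limma adjusted p = 0.0104), and untreated 2 stood well above untreated 1 without reaching any AdeLacZ array. Isg15, the ubiquitin-like modifier itself, had 888, 1455 and 1052 units in AdeLacZ cells, against 40.4 and 209 in untreated 1 and 2. Ifit3, which helps to hold foreign RNA, had 723, 1096 and 851 units in AdeLacZ cells, against 44.3 and 202 in untreated cells. Both genes were more than 3-fold brighter, in deposited units, on their lowest AdeLacZ array than on untreated 2.

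Rsad2, the radical enzyme viperin, had 542, 658 and 633 units in AdeLacZ cells, against 21.2 and 157 in untreated cells. Oasl2, a relative of the oligoadenylate synthetases, had 1031, 1401 and 1283 units in AdeLacZ cells, against 93.5 and 352 in untreated cells. These genes were picked among those whose groups do not overlap, so the gap between groups is set by that rule. In each of them untreated 2 was above untreated 1. Bst2, the tether that holds budding virus at the surface, had 333, 628 and 494 units in AdeLacZ cells, against 35.9 and 123 in untreated cells. It was the exception among the 14 named interferon-related rises: its log2 change of 2.32 (SE 0.35, limma adjusted p = 0.0044) became 1.71 with an adjusted p of 0.0614 against untreated 2 alone.

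Smaller rises in the same list covered other steps of the antiviral programme. Oasl1, which limits IRF7 translation, had 156, 151 and 165 units in AdeLacZ cells, against -4.8 and 40.0 in untreated cells, so untreated 1 was below the floor. Cmpk2, a mitochondrial nucleotide kinase, and Parp14, a mono-ADP-ribosyltransferase, rose by 2.05 (SE 0.25) and 2.11 (SE 0.25). Oas1g, which makes the activator of RNase L, had 342, 429 and 355 units in AdeLacZ cells, against 44.0 and 101 in untreated cells. Helz2, a nuclear helicase, had 215, 245 and 202 units in AdeLacZ cells, against 38.5 and 72.3 in untreated cells. Against untreated 1 alone 28 of the 42 effectors were higher (median 1.19) and against untreated 2 alone 18 were (median 0.77). Untreated 2 was above untreated 1 in 38 of the 42. Oas, Oasl, Gbp and Ifit genes have close relatives, and array probes of relatives can share signal, so the split between copies is uncertain.

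**Figure D2:**
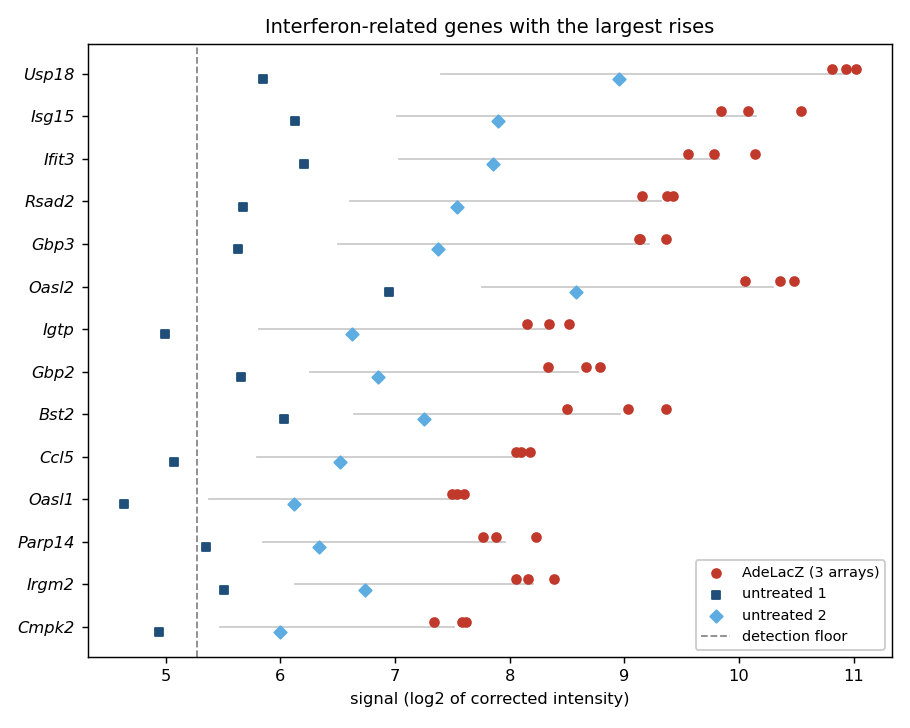
Log2 signal of the 14 interferon-related genes with the largest rises, one row per gene, with the 3 AdeLacZ arrays as circles, untreated 1 as a square, untreated 2 as a diamond, the line joining group means and the dashed line at the detection floor. In every row untreated 2 lies above untreated 1, and both lie below the 3 AdeLacZ arrays because only genes whose groups do not overlap were picked. Untreated 1 is below the floor for Igtp, Ccl5, Oasl1 and Cmpk2.

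Interferon-inducible GTPases, which attack membranes around intracellular microbes, rose in 7 of 9 tested members, and none fell (median 1.42). Gbp3, a guanylate-binding protein, had 531, 630 and 533 units in AdeLacZ cells, against 19.9 and 137 in untreated cells. Igtp (Irgm3), an immunity-related GTPase, had 254, 337 and 295 units in AdeLacZ cells, against 2.2 on untreated 1, below the floor, and 69.2 on untreated 2. Irgm2, of the same family, had 237, 306 and 256 units in AdeLacZ cells, against 15.9 and 77.3 in untreated cells. Gbp2 rose by 2.34 (SE 0.28) and Ifi47 by 1.42 (SE 0.15), while the remaining members that passed, Gbp7 and Gvin1, rose by 1.09 and 0.83. Gbp7 did not pass against untreated 2 alone (log2 change 0.78), and Gvin1 passed against neither untreated array alone (0.85 and 0.80).

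The receptors and factors of interferon signalling moved less as a list: 6 of 20 tested members rose and none fell, with a median of 0.16. Irf9, the DNA-binding subunit of the complex, had 432, 472 and 454 units in AdeLacZ cells, against 94.0 and 200 in untreated cells. Its partner Stat2 had 91.7, 84.0 and 71.8 units in AdeLacZ cells, against 4.2 and 24.8 in untreated cells. Both passed against each untreated array alone. Irf7, the factor that amplifies interferon production, had 40.2, 45.0 and 50 units in AdeLacZ cells and was below the floor on both untreated arrays, which makes it at least 1.93-fold higher (limma adjusted p = 0.00093). Such bounds set the mean of the brighter group against the floor of the arrays below it. Irf1 rose by 0.81 (SE 0.13), Socs3, an inhibitor of cytokine receptors, by 0.64 (SE 0.16) and the interferon gamma receptor chain Ifngr2 by 0.48 (SE 0.11), and none of these passed against untreated 2 alone. Ifngr2 did not pass against untreated 1 alone either (log2 change 0.44). Its 3 probes went down to 0.21, and their mean did not pass (0.33, adjusted p = 0.086). Levels of Irf3, the factor first activated by DNA sensing, were 870, 835 and 903 units in AdeLacZ cells, against 778 and 819 in untreated cells (log2 change 0.12, adjusted p = 0.60). Its activation is by phosphorylation, which arrays do not measure. Ifnar2, a chain of the type I receptor, had 48.3, 53.9 and 53.7 units in AdeLacZ cells, against 46.5 and 54.7 in untreated cells.

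Interferon genes themselves were at or near the floor. Of 10 listed, 8 had a probe and 2 were tested, and neither passed in limma, nor at an unadjusted p under 0.05. Ifna1 had 16.1, 10.1 and 15.9 units in AdeLacZ cells, against 12.0 and 10 in untreated cells, and Ifne had 12.8, 8.5 and 5.5 units in AdeLacZ cells, against 5.8 and -3.9 in untreated cells. The groups overlapped at both genes, and no other time after infection was measured.

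In the list of nucleic acid sensors and adaptors 4 of 14 tested members rose (median 0.13) and none fell. Ddx58 (RIG-I), which senses RNA ends, had 208, 226 and 192 units in AdeLacZ cells, against 37.7 and 70.5 in untreated cells (log2 change 1.54, SE 0.16, limma adjusted p = 0.0010). It was the one sensor that passed against untreated 2 alone. Its regulator Dhx58 (LGP2) had 37.3, 31.1 and 39.9 units in AdeLacZ cells, against -0.2 and 13.3 in untreated cells. The surface receptor gene Tlr2, which the list holds beside the sensors of nucleic acid, rose by 0.55 (SE 0.14) and the adaptor gene Myd88 by 0.49 (SE 0.11). Of the 14 tested genes of the NF-kB pathway, the other arm below these sensors, 0 passed in limma, with 1 higher and 1 lower at an unadjusted p under 0.05.

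In class I antigen presentation 3 of 17 tested genes rose and none fell, although 14 of 17 changes were positive and the median was 0.29. The members that passed were the non-classical class I gene H2-T23 (0.87, SE 0.15), the tapasin gene Tapbp (0.78, SE 0.15) and the peptide transporter gene Tap1 (0.67, SE 0.17). None of them passed against untreated 2 alone, and the second probe of H2-T23 and of Tapbp changed by 0.20 and 0.26, with means over probes that did not pass (adjusted p = 0.11 and 0.069).

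Chemokines and adhesion molecules moved in both directions: of 25 tested, 5 rose and 2 fell. Ccl5, which draws T cells and monocytes, had 261, 245 and 237 units in AdeLacZ cells, against 4.0 and 62.3 in untreated cells. Ccl4, a chemokine of macrophages and other immune cells, had 94.8, 97.9 and 86.6 units in AdeLacZ cells, against 2.8 and 28.2 in untreated cells. Cxcl10, an interferon-induced ligand of CXCR3, had 545, 557 and 589 units in AdeLacZ cells, against 161 and 264 in untreated cells. All of these passed against each untreated array alone. Cxcl12, a chemokine of mesenchyme, rose by 0.99 (SE 0.14) and Icam1, an adhesion molecule, by 0.78 (SE 0.11). In the other direction the monocyte chemokine gene Ccl7 had 88.7, 96.4 and 93.1 units in AdeLacZ cells, against 307 and 199 in untreated cells (log2 change -1.18, SE 0.15), and the neutrophil chemokine gene Cxcl1 fell by 0.60 (SE 0.12).

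**Figure D3:**
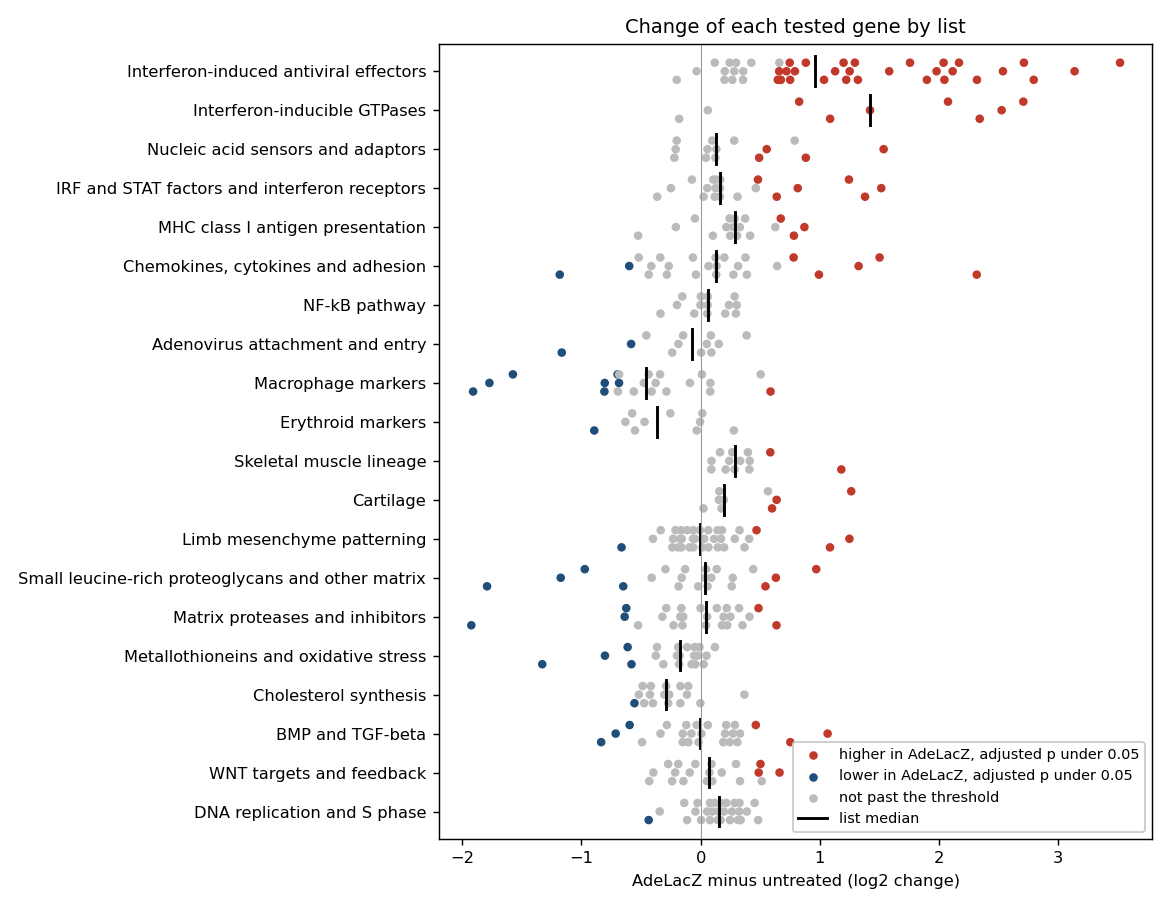
Log2 change, AdeLacZ minus untreated, of every tested gene in 20 of the 40 lists, one row per list, in red where a gene rose, in blue where it fell and in grey where it did not pass, with the list median as a black bar. The interferon effectors and GTPases are the rows with medians of 0.96 and 1.42, and the macrophage row has the lowest median at -0.46.

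A further 14 rises were named from outside the 7 interferon-related lists. Several are known interferon targets all the same: Samd9l, Shfl (which blocks viral frameshifting), Ifi202b and Gbp2b. Samd9l, an inhibitor of translation, had 372, 411 and 395 units in AdeLacZ cells, against 39.3 and 86.9 in untreated cells. Ttc27, a tetratricopeptide repeat protein gene, had 440, 476 and 531 units in AdeLacZ cells, against 80.5 and 164 in untreated cells. Untreated 2 lay above untreated 1 at all 14 genes, and both lay below the AdeLacZ arrays by the rule that picked them. Hap1, which codes for huntingtin-associated protein, rose by 1.33 (SE 0.25), but its second probe changed by 0.21 and the call was lost against untreated 2 alone (adjusted p = 0.14). At Fgfr1op2 the second probe changed by -0.12 beside 1.16 for the named one.

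Other named rises had other textbook roles. Sct, the gene of the hormone secretin, had 2138, 1908 and 2032 units in AdeLacZ cells, against 705 and 1047 in untreated cells. Ttn, the giant protein of the muscle sarcomere, had 610, 547 and 553 units in AdeLacZ cells, against 177 and 309 in untreated cells. Klhl6, known for a part in B cell development, had 239, 240 and 247 units in AdeLacZ cells, against 87.5 and 101 in untreated cells. The log2 changes of Sct, Ttn and Klhl6 were 1.21 (SE 0.16), 1.18 (SE 0.18) and 1.14 (SE 0.13).

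Limb patterning factors as a list were balanced: of 35 tested, 3 rose and 1 fell, with a median of -0.01. Those that rose were Meis1 and Meis2, cofactors of Hox proteins that mark the proximal limb, and the HoxD gene Hoxd9 (0.47, SE 0.11). Meis1 had 349, 329 and 383 units in AdeLacZ cells, against 107 and 160 in untreated cells. Meis2 had 484, 518 and 479 units in AdeLacZ cells, against 196 and 240 in untreated cells. Both passed against each untreated array alone. Hoxc6, a Hox gene of the forelimb level that the list did not hold, had 421, 403 and 457 units in AdeLacZ cells, against 111 and 209 in untreated cells (log2 change 1.32, SE 0.19, limma adjusted p = 0.0032). Twist1, a basic helix-loop-helix factor of limb mesenchyme, fell by 0.66 (SE 0.13), with 469, 390 and 426 units in AdeLacZ cells, against 725 and 665 in untreated cells. Meox2, a homeobox gene of limb muscle and vessels, had 158, 167 and 163 units in AdeLacZ cells, against 565 and 385 in untreated cells (log2 change -1.37, SE 0.15).

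Cartilage genes rose in 3 of 9 tested members and fell in none. Col2a1, the main collagen of cartilage, had 477, 462 and 423 units in AdeLacZ cells, against 144 and 204 in untreated cells, and passed against each untreated array alone. Its regulators Sox9 and Sox5 rose by 0.64 (SE 0.13) and 0.60 (SE 0.12), and neither passed against untreated 2 alone. Sox5 did not pass against untreated 1 alone either (log2 change 0.62). Its second probe changed by 0.10, and the mean of both probes did not pass (0.35, adjusted p = 0.061). The summed intensity of the 9 cartilage genes was 759 to 847 in AdeLacZ cells, against 317 and 435 in untreated cells and Col2a1 made up much of each sum. In the skeletal muscle list 2 of 13 genes passed, Ttn and the fetal acetylcholine receptor subunit gene Chrng (0.58, SE 0.11), while all 13 changes were positive with a median of 0.28. Summed muscle intensity was 38544 to 42589 in AdeLacZ cells, against 32980 and 36602 in untreated cells.

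Signalling antagonists moved in both directions. Of 26 BMP and TGF-beta genes 3 rose and 3 fell. Chrd, the BMP antagonist chordin, had 103, 114 and 105 units in AdeLacZ cells, against 21.4 and 54.2 in untreated cells, whereas Nog, the BMP antagonist noggin, had 136, 110 and 120 units in AdeLacZ cells, against 236 and 245 in untreated cells. The other falls were the ligand gene Bmp7 (-0.71, SE 0.14) and the BMP target Id4 (-0.60, SE 0.12), and the other rises were the TGF-beta target Tgfbi (0.75, SE 0.12) and the ligand gene Tgfb2 (0.46, SE 0.12). Chrd passed against each untreated array alone, and Tgfbi only against untreated 1. Nog, Bmp7, Id4 and Tgfb2 passed against neither alone. Of 21 WNT genes 4 rose and none fell: the inhibitor genes Apcdd1 (0.88, SE 0.12), Dkk1 (0.66, SE 0.15) and Dkk3 (0.50, SE 0.12) and the enhancer gene Rspo3 (0.49, SE 0.11). Dkk1 did not pass against untreated 2 alone (log2 change 0.45), and Dkk3 (0.57 and 0.44) and Rspo3 (0.45 and 0.52) passed against neither untreated array alone. Apcdd1 passed against each, and was one of the genes at which untreated 1 lay nearer to AdeLacZ cells. It had 289, 321 and 330 units in AdeLacZ cells, against 176 on untreated 1 and 138 on untreated 2. In the Hedgehog and Notch list the receptor genes Notch1 (0.65, SE 0.12) and Notch3 (0.64, SE 0.13) rose and 13 of 15 did not pass. Against untreated 2 alone neither receptor gene passed (log2 changes 0.58 and 0.43). In the FGF feedback list 1 of 16 fell, Spred2, with a list median of -0.21.

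The lowest log2 change among all named genes was at Mmp3. This protease of fibroblasts (stromelysin-1) had 99.8, 107 and 102 units in AdeLacZ cells, against 564 on untreated 1 and 395 on untreated 2. Its log2 change was -1.92 (SE 0.14, limma adjusted p = 0.00020), and its 3 probes changed by -2.13 to -1.60. Mmp10 (stromelysin-2) and the collagen-cutting cathepsin gene Ctsk also fell, by 0.64 (SE 0.14) and 0.62 (SE 0.13). In the same list the aggrecan-cutting protease gene Adamts4 rose by 0.64 (SE 0.12) and Adam19 by 0.49 (SE 0.11). Neither rise passed against either untreated array alone. Against both arrays together, 20 of 25 tested proteases and inhibitors did not pass.

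Of 21 small leucine-rich proteoglycans and other matrix genes 4 fell and 3 rose. Dcn (decorin), which coats collagen fibrils, had 74.7, 67.7 and 58.7 units in AdeLacZ cells, against 351 and 264 in untreated cells. Lum (lumican), its relative, was below the floor on all 3 AdeLacZ arrays and had 42.5 and 28.7 units in untreated cells, which makes it at least 1.68-fold lower. Mgp, an inhibitor of calcification, had 950, 1006 and 902 units in AdeLacZ cells, against 2064 and 1740 in untreated cells. All of these passed against each untreated array alone, whereas Lox, the collagen and elastin crosslinker, fell by 0.65 (SE 0.12) and did not pass against untreated 2 alone. The rises were in elastic fibre genes: Eln (elastin, 0.97, SE 0.18), Mfap4 (0.63, SE 0.15) and Fbn2 (fibrillin-2, 0.54, SE 0.12). None of them passed against untreated 2 alone. Mfap4 and Fbn2 did not pass against untreated 1 alone either (log2 changes 0.75 and 0.59). Of 8 osteoblast and tendon genes 1 fell, the tendon factor gene Egr2 (-0.53, SE 0.13). Among 21 collagen chains Col26a1 (0.61) and Col5a1 (0.45) rose and Col1a2 (-0.70) fell.

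Secreted signals fell in 4 of 22 tested genes and rose in none. Adcyap1, the neuropeptide PACAP, had 85.6, 100.4 and 98.8 units in AdeLacZ cells, against 398 and 318 in untreated cells. Igf1, the growth factor, had 33.6, 40.5 and 32.2 units in AdeLacZ cells, against 124 and 95.2 in untreated cells. Igfbp2, which binds it, fell by 0.78 (SE 0.13), and Gdnf, a factor for motor axons, fell by 0.67 (SE 0.13). Hpgd, an enzyme that inactivates prostaglandins, had 67.1, 82.3 and 62.3 units in AdeLacZ cells, against 265 and 214 in untreated cells. Slco2a1, the prostaglandin transporter, had 146, 110 and 120 units in AdeLacZ cells, against 330 and 353 in untreated cells. Angptl7, a secreted angiopoietin-like protein, had 11.9, 15.7 and 11.4 units in AdeLacZ cells, close to the floor, against 102 and 120 in untreated cells. The remaining named falls were Uap1 (-1.30), which makes UDP-N-acetylglucosamine, Rbm47 (-1.26), an RNA-binding protein, and Hs3st1 (-1.25), a heparan sulfate sulfotransferase. Uap1, Rbm47 and Hs3st1 passed against each untreated array alone.

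**Figure D4:**
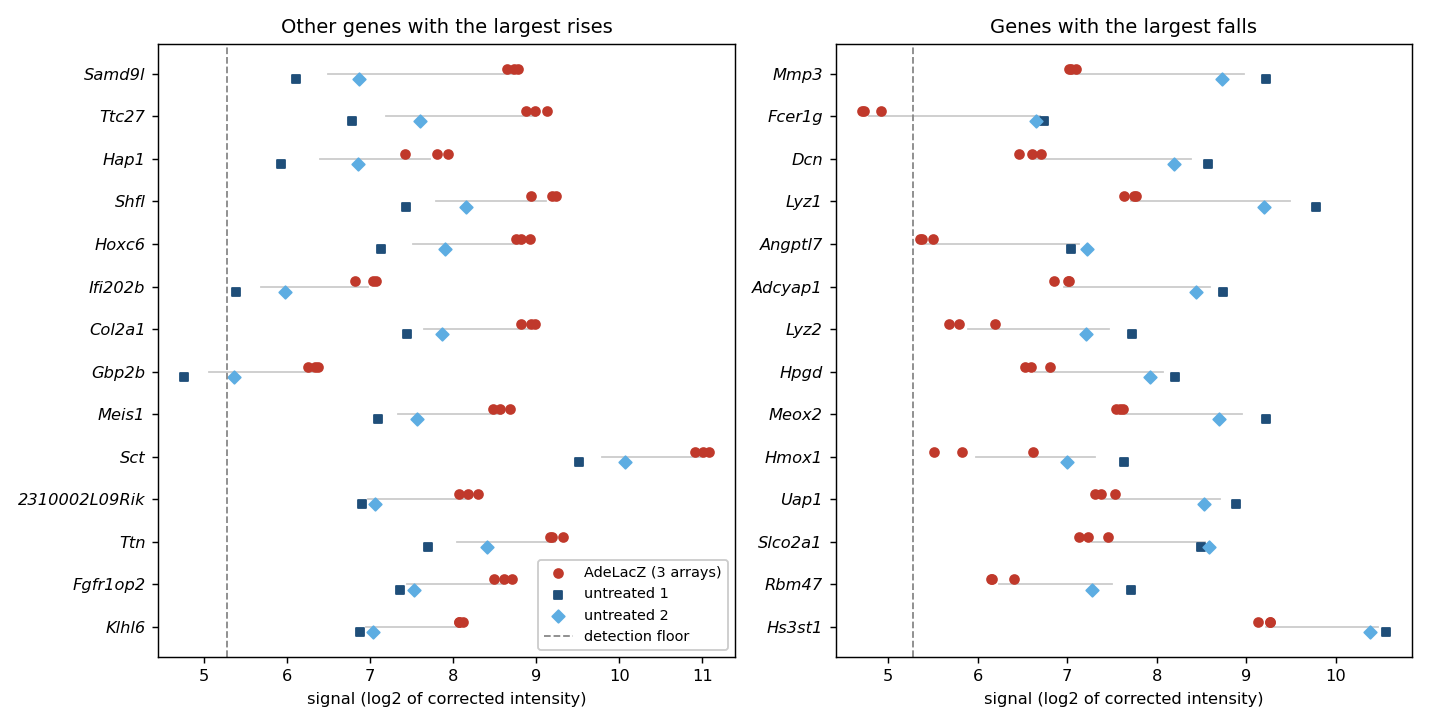
Log2 signal on each array of the 14 largest rises outside the interferon-related lists (left) and the 14 largest falls (right), with AdeLacZ arrays as circles, untreated 1 as a square, untreated 2 as a diamond, a line joining group means and the dashed detection floor. Only genes whose groups do not overlap were picked, so at the 14 falls all AdeLacZ arrays lie below both untreated arrays by that rule. Fcer1g is below the floor on all 3 AdeLacZ arrays.

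Macrophage markers were the list with the lowest median (-0.46): of 22 tested 7 fell and 1 rose. Lyz2, the lysozyme of macrophages, had 25.8, 43.4 and 21.6 units in AdeLacZ cells, against 181 and 118 in untreated cells, and Lyz1, a near-identical copy whose probe may share signal with it, had 184, 188 and 170 units in AdeLacZ cells, against 847 and 557 in untreated cells. Fcer1g, the signalling chain of Fc receptors, was below the floor on all 3 AdeLacZ arrays and had 77.0 and 70.7 units in untreated cells, which makes it at least 2.68-fold lower (limma adjusted p = 0.00020). Cx3cr1, the fractalkine receptor, had 17.8, 15.5 and 13.4 units in AdeLacZ cells, against 42.5 and 44.7 in untreated cells. The Fc receptor gene Fcgr3 fell by 0.80 (SE 0.12), the complement gene C1qc by 0.81 (SE 0.17), and Spi1 (PU.1), the master factor of the lineage, was below the floor on all AdeLacZ arrays and at least 1.45-fold lower. Cd52 was the member that rose (0.59, SE 0.13). In the complement list, which shares C1qc, the component gene C2 rose (0.65, SE 0.12) and 8 of 10 did not pass. Other markers did not pass, among them Laptm5, with 972, 827 and 1007 units in AdeLacZ cells, against 904 and 946 in untreated cells, and Adgre1 (F4/80), with 10.5, 10.9 and 22.6 units in AdeLacZ cells, against 51.5 and 22.2 in untreated cells. Summed over the 22 tested markers, intensity was 1640, 1460 and 1569 in AdeLacZ cells, against 2707 and 2306 in untreated cells. Lyz1 made up much of the difference between these sums. Against untreated 1 alone 8 of the 22 were lower and against untreated 2 alone 4 were.

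The summed intensity of 10 erythroid genes was 5969, 6506 and 5678 in AdeLacZ cells, against 9109 and 7548 in untreated cells, with 1 gene, the embryonic globin Hbb-bh1, past the test (-0.89, SE 0.16). The groups did not overlap in the macrophage or the erythroid sum, and they overlapped in the endothelial, neuronal and surface ectoderm sums. Endothelial sums were 1556 to 1749 in AdeLacZ cells, against 1537 and 1630 in untreated cells, with Robo4 higher (0.51, SE 0.11) and Tek lower (-0.68, SE 0.17) of 12 tested. The second probe of Robo4 changed by 0.11, and the mean of both did not pass (0.31, adjusted p = 0.090). Neuronal sums were 1831 to 2036 in AdeLacZ cells, against 2053 and 1878 in untreated cells, with Dcx (0.56, SE 0.13) and Isl1 (0.46, SE 0.10) higher of 12. Surface ectoderm sums were 1665 to 1923 in AdeLacZ cells, against 1726 and 1843 in untreated cells, and the keratin gene Krt14 rose (1.0, SE 0.14). The part of these cell types in the falls and rises above was not tested.

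In stress and metabolism lists few members passed. In the metallothionein and oxidative stress list 4 of 21 fell, none rose and 18 changes were negative (median -0.18). Mt1, a zinc-binding metallothionein, had 1471, 1031 and 1143 units in AdeLacZ cells, against 2473 and 1814 in untreated cells. Hmox1, heme oxygenase, had 16, 68.8 and 26.9 units in AdeLacZ cells, against 169 and 97.9 in untreated cells. Its AdeLacZ arrays were far apart, and against untreated 2 alone the log2 change of -1.01 did not pass (adjusted p = 0.28). The zinc exporter gene Slc30a1 (-0.61, SE 0.14) and the glutathione synthesis gene Gclm (-0.58, SE 0.13) made up the count. None of the list's members passed against untreated 2 alone.

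The glucose transporter genes Slc2a1 (-0.56, SE 0.11) and Slc2a3 (-0.56, SE 0.11) fell and hexokinase gene Hk2 rose (0.45, SE 0.11) among 25 genes of glycolysis and hypoxia. In cholesterol synthesis 16 of 17 changes were negative (median -0.29) and 1 member, Mvd, passed (-0.56, SE 0.10). Among lipid genes Lpl (lipoprotein lipase, 0.82, SE 0.10) and the lipid droplet gene Plin2 (0.61, SE 0.12) rose, and Apoe (-0.61, SE 0.15) fell beside Hpgd and Angptl7. Of 28 replication genes 1 passed, Rrm2 (-0.44, SE 0.10), whose second probe changed by 0.10 and whose mean over probes did not pass (adjusted p = 0.43). Most of that list changed the other way: 22 changes were positive (median 0.16). At an unadjusted p under 0.05 in limma 9 were higher and 1 lower, against 1217 and 1069 of all 10772 tested genes. The p53 targets Gadd45a (-0.79, SE 0.16) and Ei24 (-0.52, SE 0.11) fell among 26, and the heat shock gene Cryab rose (0.75, SE 0.13) among 12. In limma 0 genes passed among 21 of mitosis (1 higher and 1 lower at an unadjusted p under 0.05), 16 of the unfolded protein response (3 and 3), 21 of serine synthesis and the ATF4 response (3 and 3) and 16 of smooth muscle (2 and 0). Of 25 apoptosis genes 1 passed, Casp1, which matures interleukin-1, with 9.3, 11.5 and 11.7 units in AdeLacZ cells, close to the floor. All untreated and AdeCre arrays were below the floor, so the change is given only as at least 1.05-fold higher. Casp1 was tested only because of the AdeLacZ arrays, so its direction is tied to the filter. Against untreated 1 and untreated 2 alone its log2 changes were 0.42 and 0.37.

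Of 15 listed genes for attachment and entry of the virus, 12 were tested. Itgb3 was below the floor on both untreated arrays and above it on only 1 AdeLacZ array (16.7, -2.9 and 7.6 units). Cxadr, the coxsackievirus and adenovirus receptor, had 195, 218 and 214 units in AdeLacZ cells, against 233 and 163 in untreated cells (log2 change 0.09, SE 0.14). Its 3 probes ranged over -0.18 to 1.41, and their mean rose by 0.44 and passed (limma adjusted p = 0.028). The integrin genes used for uptake, Itgav and Itgb5, had 389 to 423 and 864 to 1042 units in AdeLacZ cells, against 486 to 490 and 678 to 765 in untreated cells, and neither passed. By the brightest probe of each gene, 2 of the 12 tested genes fell and none rose. Sdc4, a heparan sulfate proteoglycan, fell by 0.58 (SE 0.14), and Car2, carbonic anhydrase 2, an enzyme that the list holds and that is not known as an adenovirus receptor, had 33.7, 22.9 and 29.5 units in AdeLacZ cells, against 120 and 83.9 in untreated cells.

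The AdeCre arrays, from cells given the virus with Cre in place of LacZ, were used for values side by side and share the untreated arrays with the comparison above. None of the 14 named interferon-related genes and none of the 14 named falls passed the test between AdeLacZ and AdeCre cells. Of the 14 other rises 1 did. Of all 595 genes that rose or fell, 41 passed that test, so these counts do not set the named genes apart. Usp18 had 1764 to 2042 units in AdeLacZ cells and 1450 to 1729 in AdeCre cells, against 27.8 and 466 in untreated cells. Mmp3 had 99.8 to 107 units in AdeLacZ cells and 121 to 135 in AdeCre cells, against 564 and 395 in untreated cells. Klhl6 was the gene that differed, with 239 to 247 units in AdeLacZ cells and 134 to 177 in AdeCre cells (log2 difference AdeLacZ minus AdeCre 0.61, SE 0.11, limma adjusted p = 0.0160). Summed macrophage intensity was 1460 to 1640 in AdeLacZ cells and 1319 to 1389 in AdeCre cells, against 2707 and 2306 in untreated cells.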

How the data were processed

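Total RNA of 8 samples of cultured limb bud cells was labelled and hybridised to Illumina mouse bead arrays, with 1 array for each sample. The deposited value table, made with BeadStudio 2.1 per the submitters' processing notes, holds linear intensity values per probe. From the values themselves, 25.7% lie below 0 and all arrays share nearly 1 distribution, so background was subtracted and the arrays were already normalized when deposited; no label or header gives the normalization method. Another table of 32 value columns named by chip position could not be tied to samples and was not used.

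Intensities were corrected with normexp (offset 16) and taken to log2 in limma 3.58.1 (R 4.3.3). With this offset, changes of dim probes are understated. Probes above the floor of 1.645 background SDs on at least 2 arrays were tested (15944, 62.05%). A linear model of 3 groups on all 8 arrays, with eBayes (5 residual and 5.64 prior degrees of freedom), gave log2 changes, SEs and 2-sided p-values adjusted by Benjamini-Hochberg. The number of arrays limits precision; the median SE was 0.13. Each untreated array was also fitted alone. Of 25697 probes 23978 had 1 gene symbol in the platform annotation, 1719 had none and 23962 matched RefSeq. A gene was represented by the probe with the highest mean over all arrays.

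Named genes were the 14 largest rises in 7 interferon-related lists, the 14 largest other rises and the 14 largest falls, among called genes whose groups do not overlap, with up to 4 members of each of 40 lists by smallest p, tested members of the interferon, IRF and STAT, and entry lists by level, and the 8 genes with the largest difference in each direction between the untreated arrays. Further members were named, after their values were seen, where they make up a small count. Members and lists were chosen with earlier results of these data known. Lists are described by counts and medians, with no set test. The model was tested on simulated data. Same-numbered arrays did not deviate together (correlations of residuals from -0.14 to 0.02), so replicate numbers were not taken to pair samples.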

Additional observations from a re-analysis of the deposited data

How the results depend on the processing

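Of the 148 named genes that passed, 0 changed direction under any of the alternatives and 42 passed under every one. The probe counts of 435 higher and 399 lower became 151 and 111 with no background correction, 768 and 672 with an offset of 50, 254 and 232 with no filter on dim probes, and 822 and 678 with a variance trend and robust prior. With the replicate number as a block they were 232 and 210; the numbers share no stated source. Leaving out 1 array in turn gave 97 to 443 higher and 71 to 406 lower, lowest without untreated 1 (97 and 71); without untreated 2 the counts were 393 and 276, and without AdeLacZ replicate 1, 2 or 3 they were 233 and 209, 237 and 222, and 215 and 175. Quantile and loess normalization, array and group weights, the 5 arrays alone and a floor on all arrays kept both counts within 1.5 times. The mean over probes is a fit of genes, so its 365 higher and 325 lower stand beside the 317 and 278 genes called by the brightest probe. With a floor on all arrays 21 interferon effectors were higher in place of 29. The count of interferon effectors that were higher was 11 in place of 29 with no background correction and 18 to 29 with 1 array left out. GTPases that were higher were 2 in place of 7 with no correction, 4 with a floor on all arrays and 5 to 7 with 1 array left out. Macrophage markers that were lower were 4 in place of 7 with no correction and 4 to 8 with 1 array left out, lowest without untreated 1.

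Against untreated 1 alone (393 and 276) the counts were 234 and 73 with no correction, 819 and 719 with an offset of 50, 216 and 124 with no filter and 673 and 519 with a floor on all arrays. Against untreated 2 alone (97 and 71) they were 9 and 7, 240 and 270, 54 and 31, and 169 and 153 under the same 4 settings. The cause of these shifts was not tested. Against 1 untreated array, the spread of untreated cells rests on the other groups. Signal near the floor limits what dim genes such as the interferons can show.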
